A study of Mus musculus with 30 samples.

Results

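The response of cultured mouse microglia labelled WT to amyloid-beta (Aβ) medium after 8 h was described from 6 of the 30 libraries of the study. The 3 libraries whose condition is WT at 8 h with Aβ were set against the 3 whose condition is WT at 8 h without it. No measured value entered that choice. Microglia, the resident macrophages of the brain, had been prepared as primary cultures from mouse brains, harvested by shake-off, and then kept with or without conditioned medium containing Aβ, the peptide that forms the plaques of Alzheimer's disease. RNA was extracted and sequenced. Beside these 6 libraries, the results use WT at 0 h, WT at 2 h with Aβ, WT at 2 h without, and, from cultures labelled as knockouts of the inhibitory receptor PD-1, those at 0 h, at 8 h with Aβ and at 8 h without, with 3 libraries each. The labels give no strain and no age. They state neither which medium the untreated cultures received nor whether the 3 libraries of a group came from separate animals or cultures. Each p-value therefore measures only how libraries spread within their groups, pooled over all 30 libraries. That spread may be technical.

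Pdcd1, the gene of PD-1, went against the genotype labels: all 15 libraries labelled PD-1 KO held 6.02 to 25.3 of its signal, whereas every one of the 15 with the WT label had it at the floor of the deposited values. Genotypes are therefore given as labelled. Depth over the genes in the table was 9877660, 7177909 and 17064350 reads with Aβ and 9442385, 26702316 and 4227019 reads without. Replicate 3 without Aβ, named here as the shallow library, was the shallowest of all 30 and had 452 genes at the floor, against 253 to 329 in the Aβ libraries. In the 6 libraries, 18 of 18 microglia and macrophage markers were in the table with none at the floor, and their summed signal was 151598 to 154343 with Aβ and 167461 to 185143 without. None of the 14 markers of other blood cells was in it. Markers of astrocytes, oligodendrocyte precursors and ependymal cells were present too, so the libraries were not of microglia alone.

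Microglia sense Aβ through pattern-recognition and scavenger receptors such as TLR2, CD36 and MARCO and through TREM2, and degrade it in lysosomes. Type I interferons, which act through a cell surface receptor and its JAK kinases, switch on a large set of antiviral genes, and IRF7 amplifies their production. NF-kB drives cytokines such as IL-1β, and NRF2 drives genes of glutathione and iron handling under oxidative stress.

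Values are the deposited signal: gene counts scaled by each library's size factor, with anything under 1 set to 1. Fold changes are log2 of the value plus 1, with Aβ minus without, ± standard error, from limma fitted to all 30 libraries, with p-values adjusted by the Benjamini-Hochberg method over 13722 genes and a threshold of 0.05. They understate the change of low genes. Of 13722 genes tested, 299 passed with Aβ at 8 h (2.18%), of which 281 fell (2.05% of all tested) and 18 rose (0.131%). The median fold change of all genes was -0.00, and that of the 281 lower genes was -1.22. Of the 281, 265 had no overlap between the groups, a pattern that 12.7% of all genes showed in that direction. The same held for 16 of the 18 higher genes (10.5% of all genes). The lower genes were mostly low ones, with a median signal of 74.7 without Aβ, against 218 for all genes tested. The count depended on single libraries: it was 55 without replicate 1 of the untreated group, 97 without its replicate 2, 513 without its shallow replicate 3, and 159, 102 and 177 without replicates 1, 2 and 3 of the Aβ group. In all, 46 genes were called whichever of the 6 libraries was left out. A fit of these 6 libraries alone called 68 genes, 41 of them among the 299.

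Genes induced by type I interferon were among the decreases. Of 37 type I interferon response genes tested, 13 fell and 0 rose. The signs of 35 were negative, and the list median was -0.59, against -0.00 for all genes. Of all genes tested, 2.05% were called lower and 49.2% had a positive sign. Of 11 guanylate-binding proteins and immunity-related GTPases, which attack vacuoles of intracellular microbes, 4 fell, or 2 without replicate 1 of the untreated group. Ifit3, Irf7, Ifitm3 and Gbp3 were called here and under all 19 alternative settings. Their promoters are printed to show whether and where the core of the interferon-stimulated response element, found in many promoters of such genes, occurs. Each window holds 250 bases before and 50 after the gene's start, from RefSeq on GRCm38.p6, on the gene's own strand. Where a gene has several windows, the one with most matches is printed. This applies to Gbp3, which has 2. Capitals mark the motif searched, GAAA, any 2 bases, then GAAA, on either strand, and overlapping matches run together.

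Ifit3 (chr19:34583279-34583578, plus strand): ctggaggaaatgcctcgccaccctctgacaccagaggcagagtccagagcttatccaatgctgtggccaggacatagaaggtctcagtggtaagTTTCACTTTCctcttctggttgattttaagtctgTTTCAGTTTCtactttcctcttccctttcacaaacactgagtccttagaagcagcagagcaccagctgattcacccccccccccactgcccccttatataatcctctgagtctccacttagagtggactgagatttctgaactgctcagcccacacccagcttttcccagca
Ifitm3 (chr7:141010695-141010994, minus strand): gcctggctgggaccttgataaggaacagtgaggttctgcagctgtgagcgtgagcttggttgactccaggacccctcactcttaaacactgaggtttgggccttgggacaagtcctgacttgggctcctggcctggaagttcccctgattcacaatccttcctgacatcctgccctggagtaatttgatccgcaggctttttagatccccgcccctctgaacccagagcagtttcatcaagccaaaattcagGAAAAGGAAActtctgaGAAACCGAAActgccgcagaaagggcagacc
Gbp3 (chr3:142559794-142560093, plus strand): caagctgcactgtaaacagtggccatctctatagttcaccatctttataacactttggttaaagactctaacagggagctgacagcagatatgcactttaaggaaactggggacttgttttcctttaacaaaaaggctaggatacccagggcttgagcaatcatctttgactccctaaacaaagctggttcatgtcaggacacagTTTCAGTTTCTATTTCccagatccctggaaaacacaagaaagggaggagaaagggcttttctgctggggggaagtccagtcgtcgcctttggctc
Irf7 (chr7:141266375-141266674, minus strand): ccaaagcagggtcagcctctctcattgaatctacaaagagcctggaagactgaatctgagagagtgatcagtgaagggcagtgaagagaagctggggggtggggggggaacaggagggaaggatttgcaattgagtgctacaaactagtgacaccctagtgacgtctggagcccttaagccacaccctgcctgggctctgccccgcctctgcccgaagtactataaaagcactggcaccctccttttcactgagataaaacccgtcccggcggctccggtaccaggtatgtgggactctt

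The Ifit3 window has 2 matches, which begin 156 and 122 bases before the start. Gbp3 has 2 overlapping matches at 45 and 39 bases before it, and Ifitm3 has 2 that begin 2 and 19 bases past it. The window of Irf7 holds none, which says only that these letters do not occur there. Over all 32851 windows, 1131 (3.44%) hold a match. A gene was counted if any of its windows held a match. Among genes tested that have a window, the share was 409 of 10755 (3.8%). It was 18 of 213 (8.45%) for the genes lower at 8 h. Of these it was 7 of 12 (58.3%) for those in an interferon list and 11 of 201 (5.47%) for the rest. In whole lists, fallen or not, it was 13 of 25 (52%) for type I interferon response genes. It was 7 of 7 (100%) for guanylate-binding proteins and immunity-related GTPases and 4 of 15 (26.7%) for MHC class I. The 58.3% therefore does not set the genes that fell apart from their lists. No match was found in the windows of 5 oligodendrocyte precursor, 10 astrocyte and 15 ependymal markers. At a share of 3.8% so few windows can hold none. A match is a sequence, not a measured binding site.

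Ifit3 encodes an antiviral protein that binds foreign RNA together with its relatives. Its signal was 56.2, 64.7 and 69.9 with Aβ and 494.5, 218 and 178 without. All Aβ libraries lay below all untreated ones, and replicate 1 without Aβ was the highest. The fold change was -2.06 ± 0.31 (adjusted p = 0.000919). Irf7, the amplifier of interferon production, stood at 55.2, 55.9 and 62.5 with Aβ and at 240.2, 123 and 198.1 without. Again the groups did not overlap, and the fold change was -1.63 ± 0.25 (adjusted p = 0.00092). Ifitm3, a membrane protein that blocks viral entry, had 456.3, 424.9 and 409.4 with Aβ against 905, 663.6 and 1045.4 without. It was lower in all 3 Aβ libraries, by 0.99 ± 0.17 on the log2 scale (-0.99, adjusted p = 0.00172).

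Gbp3, a guanylate-binding protein, was low throughout: 9.55, 8.82 and 4.95 with Aβ and 44.8, 43.8 and 32.6 without. The groups were apart by more than their spread, at -2.27 ± 0.33 (adjusted p = 0.000857). Gbp2 averaged 35.0 ± 4.16 with Aβ and 81.6 ± 23.2 without (SD, n = 3 each) and fell by 1.17 ± 0.21 on the same scale (-1.17). Gbp5 (-2.42 ± 0.44) was near the floor with Aβ, at 1.06 to 2.47. The guanylate-binding proteins are close relatives, and the counting rule for reads that fit several is not given in the sources used here. Gbp6 (-1.65 ± 0.32) also shares exon sequence with a neighbouring gene model on its strand.

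Usp18, which shuts off the interferon receptor, averaged 31.8 ± 11.3 with Aβ and 102 ± 42.2 without (-1.64 ± 0.28). The antiviral effectors Rsad2 (-1.66 ± 0.40) and Mx1 (-1.65 ± 0.41) fell as well, and each was called in 1 of the 6 fits with a library left out, that without the shallow one. Isg15, the ubiquitin-like modifier, averaged 59.5 ± 9.56 with Aβ and 132 ± 71.9 without, and did not pass (-1.01 ± 0.29, adjusted p = 0.0636). Of 19 interferon receptor and signalling genes, 0 were called in limma and 7 had an unadjusted p under 0.05. Of 17 genes of MHC class I and peptide loading 1 fell, H2-Q4 (-0.51 ± 0.12), one of several near-identical class I genes. The count of 13 response genes was 4 without replicate 1 of the untreated group, 5 without any 1 of the Aβ libraries, and 4 with quantile normalization.

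**Figure D1:**
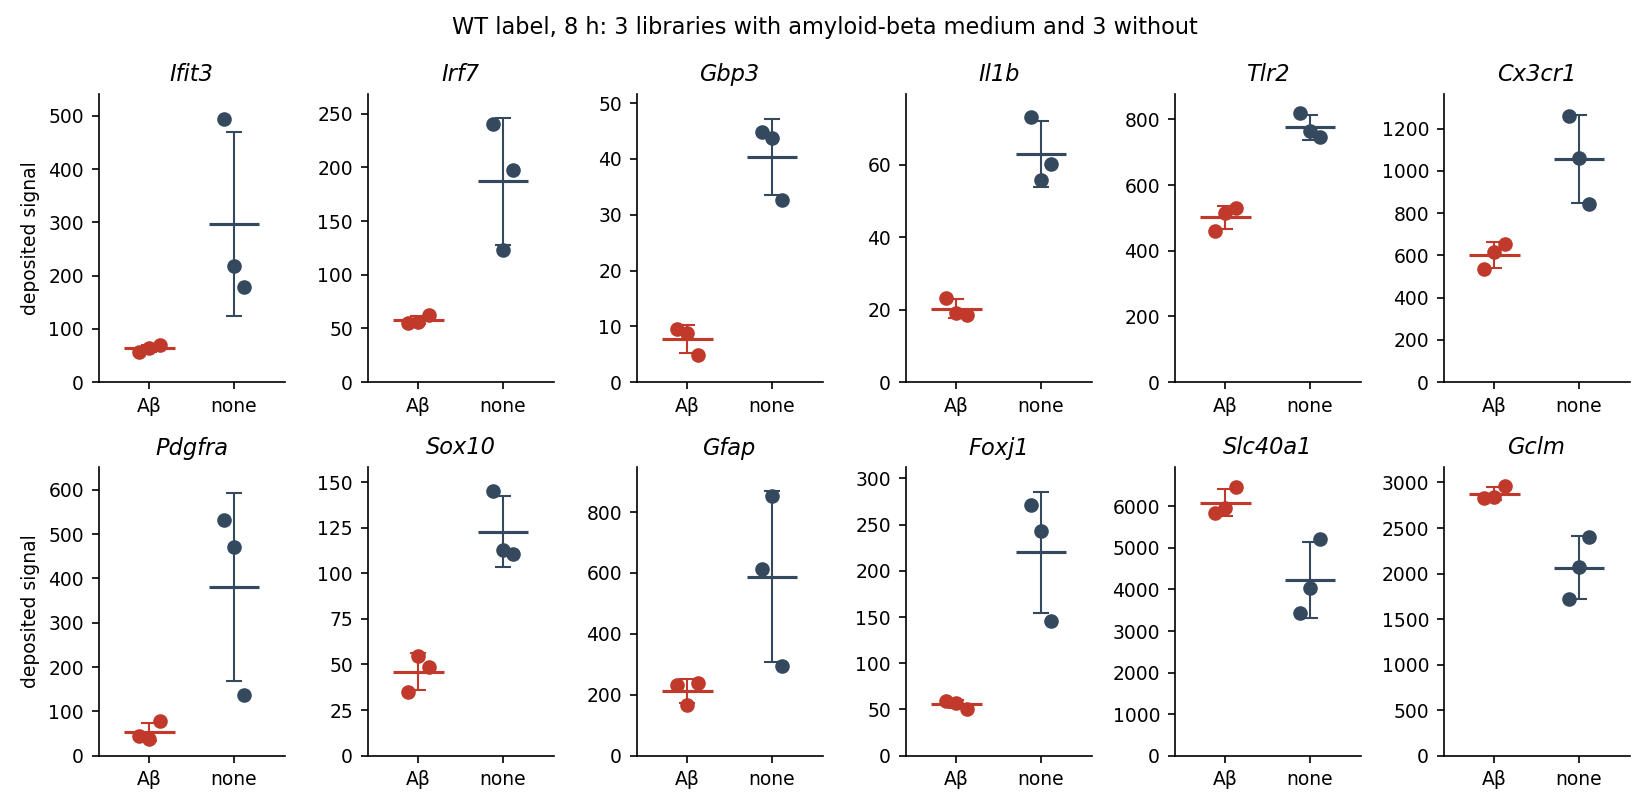
Deposited signal (linear axes from 0) of 12 genes in the 3 WT libraries at 8 h with Aβ, left in each panel, and the 3 without, right. Points are libraries, bars the mean and its SD. In each panel the groups do not overlap; Slc40a1 and Gclm are higher with Aβ and the other 10 are lower.

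At 2 h most interferon genes had the opposite sign. At 2 h, WT libraries with Aβ were compared with WT libraries without, which share no library with the 8 h groups. The 8 h libraries carry a separate series of numbers from those at 0 h and 2 h, for a reason the labels do not give. Differences between the times, in level or in effect, cannot be told apart from whatever divides the 2 series. The 37 type I response genes had a median of -0.59 at 8 h and 0.73 at 2 h. At 2 h alone limma called 0 of 13722 genes. There 681 had an unadjusted p under 0.05, against 686.1 expected by chance. The difference between the effects, 8 h minus 2 h, was past the threshold for 37 genes, all lower (0.27% of those tested). Of the 37, 25 (67.6%) were in the interferon lists, which is 29.8% of the 84 genes in those lists. All 37 type I response genes had a negative difference, 17 of them past the threshold, with a median of -1.47.

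Ifit3 averaged 115 ± 15.6 at 0 h. At 2 h it averaged 538 ± 134 with Aβ and 210.2 ± 67.0 without, and at 8 h 63.6 ± 6.89 with Aβ and 297 ± 172 without (SD, n = 3 each). Among the 5 WT groups the Aβ group thus had the highest mean at 2 h and the lowest at 8 h. The difference in effect was -3.43 ± 0.44 (adjusted p = 0.000121). Irf7 followed the same order at the extremes, with 145 ± 30.1 at 0 h, 403 ± 39.8 and 171 ± 17.4 at 2 h with and without Aβ, and 57.8 ± 4.02 and 187 ± 59.3 at 8 h with and without. Its 0 h level and both untreated levels were not separated beyond their spread. Its difference in effect was -2.85 ± 0.35 (adjusted p = 0.000121).

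Oas3, which makes the signal molecule that activates the RNA-cleaving RNase L, had the largest difference, at -3.83 ± 0.74 (adjusted p = 0.0153). It came from 2.14 ± 0.52 at 2 h and -1.70 ± 0.52 at 8 h, neither past the threshold. Rsad2 (-2.93 ± 0.57), Ifit2 (-2.92 ± 0.49) and Mx1 (-2.74 ± 0.58) came next. Outside the interferon lists, 12 genes differed between the times. They include Tlr2, C3, Il2rg, Fpr1, Cxcl10, Id1 and Pdgfra; this set was named after its values were seen. Pdgfra was the only one of the 37 below 0 already at 2 h (-0.34 ± 0.37). The count of 37 was 12 without replicate 1 of WT at 8 h, 22 and 16 without replicates 1 and 2 of WT at 8 h with Aβ, 13 without replicate 2 of WT at 2 h, 20 without replicate 3 of WT at 2 h with Aβ, 59 without its replicate 2, and 93 without the shallow library. With only the groups compared in the fit it was 3. Of the 27 time-difference genes with a promoter window, 12 (44.4%) hold the interferon motif. Most of the 37 were in the interferon lists, and 13 of 25 (52%) type I response genes with a window hold it.

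**Figure D2:**
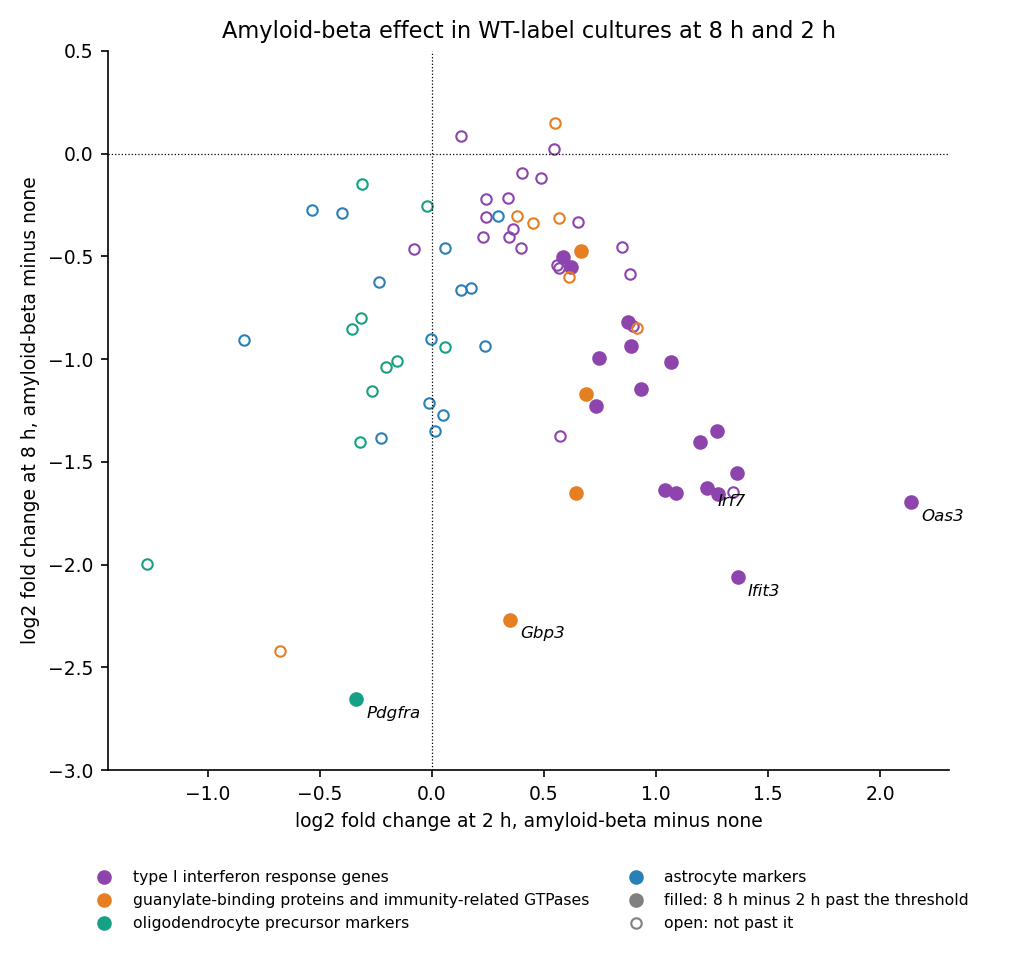
Log2 fold change, Aβ minus none, in WT libraries at 8 h (vertical) against 2 h (horizontal) for members of 4 gene lists. Each point is a gene, filled where the difference between the times passed the threshold. Interferon genes lie mostly to the right of 0 and below 0, whereas oligodendrocyte precursor and astrocyte markers lie below 0 at 8 h near or left of 0 at 2 h.

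**Figure D3:**
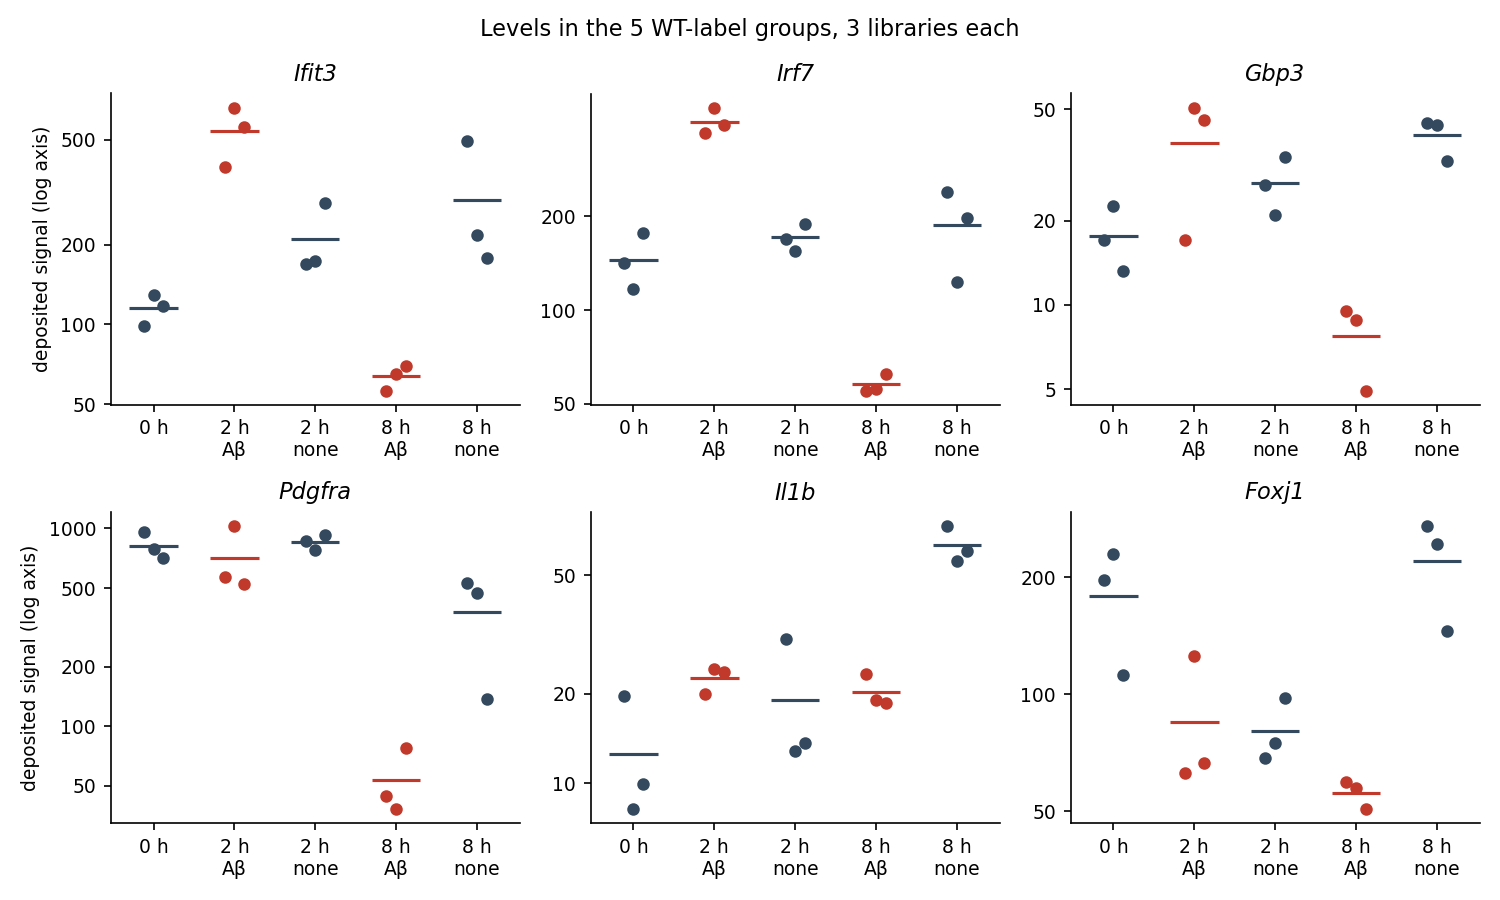
Deposited signal (log axes) of 6 genes in the 5 WT groups, from 0 h to 8 h, with Aβ left of none at 2 h and 8 h. Points are the 3 libraries of a group and lines their means. For Ifit3, Irf7 and Gbp3 the Aβ group has the lowest mean of the 5 groups at 8 h and at 2 h a mean above that of the untreated group, with overlapping libraries for Gbp3.

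Calls in the lists of inflammatory cytokines, chemokines, NF-kB genes, Toll-like receptors and complement were all lower. They were 1 of 12, 1 of 14, 2 of 22, 1 of 20 and 3 of 18 members, in that order. Of all genes tested, 2.05% were called lower and 0.131% higher. Il1b, the gene of the cytokine IL-1β, had 23.3, 19.1 and 18.6 with Aβ and 73.1, 55.7 and 60.2 without. All 3 Aβ libraries lay far below the untreated ones, and the fold change was -1.58 ± 0.33 (adjusted p = 0.00971). At 0 h Il1b averaged 12.6 ± 6.18, and at 2 h 22.6 ± 2.35 with Aβ and 19.05 ± 10.02 without. The untreated group at 8 h was the highest of the 5 WT groups, with no library in reach of the others. The call was lost without replicate 1 of the untreated group and with quantile normalization. Tnf did not pass (-0.14 ± 0.15), and Il1b was the only 1 of 12 inflammatory cytokines called.

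Tlr2, the Toll-like receptor for bacterial lipoproteins that also binds fibrillar Aβ, had 460.5, 514.6 and 528.7 with Aβ and 818.7, 765 and 744.6 without. The groups were apart (-0.63 ± 0.10, adjusted p = 0.0012), and Tlr2 was called under all 19 alternatives. Icam1, an adhesion molecule and NF-kB target, showed a like pattern: 455.2, 492.5 and 487.3 with Aβ against 778.3, 711.2 and 707 without. It fell by 0.61 ± 0.11 on the log2 scale (-0.61, adjusted p = 0.0033), also under all 19. Nfkb2, the p100 subunit gene of NF-kB, fell to 1033 ± 76.0 with Aβ, against 1362 ± 25.6 without (-0.40 ± 0.10). These were 2 of 22 NF-kB subunits and targets, whose list median was -0.21. Nfkb2 lost its call without replicate 1 or 2 of either group, and the list count was 1 without replicate 1 or 2 of the untreated group or replicate 2 of the Aβ group. The chemokine Cxcl10, also induced by interferon, was the only 1 of 14 chemokines called (-1.08 ± 0.26), and lost its call without replicate 1 or 2 of the untreated group or replicate 1 or 3 of the Aβ group.

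Complement genes were lower in 3 of 18 cases. C3, the central component whose fragments tag targets for uptake, had 412.8, 349.9 and 473.1 with Aβ and 1147.3, 1159.5 and 787.2 without. The lowest untreated library, the shallow one, still lay above all Aβ libraries (-1.31 ± 0.23, adjusted p = 0.00206). C3 was called under all alternatives. C4b (-1.65 ± 0.44) and C1s1 (-1.68 ± 0.30) were low, at means of 16.9 and 1.87 with Aβ and 59.3 and 8.37 without. C4b was called in only 6 of the 19 alternatives and, of the 6 libraries, could lose only the shallow one and keep its call. C3, Gbp2 and Gfap also stand in the list of reactive astrocyte genes, of which 5 of 21 fell, against 2.05% of all genes. That count was 2 without replicate 1 of the untreated group and 3 without its replicate 2 or without replicate 2 or 3 of the Aβ group.

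Receptors and enzymes that handle Aβ were looked up by list, beside 2.18% of all genes called in either direction. Of 25 genes of the TREM2 and disease-associated programme 0 were called in limma, with 4 at an unadjusted p under 0.05 and a list median of 0.01. Without overlap 2 were higher and 6 lower, as were 10.5% and 12.7% of all genes. Trem2 averaged 14903 ± 742 with Aβ and 14983 ± 537 without (-0.01 ± 0.15), and Apoe, the lipid carrier, 135679 ± 1633 and 147683 ± 8235 (-0.12 ± 0.18). Cd36, a scavenger receptor that binds fibrillar Aβ, had 77482, 88463 and 84555 with Aβ and 50765, 59611 and 70876 without. Its groups did not overlap, but the fold change of 0.48 ± 0.14 did not pass (adjusted p = 0.0732). Marco, a scavenger receptor for polyanions and Aβ, was higher, at 67.9, 80.9 and 66.8 with Aβ against 30.6, 39.6 and 42.6 without (0.92 ± 0.24, adjusted p = 0.0383). The call for Marco was lost without any 1 of 5 libraries, all but the shallow one, with fold changes of 0.79 to 1.02 over all alternatives.

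Fpr1, the receptor for formylated peptides, fell to 5.31, 5.88 and 1.24 with Aβ, against 22.9, 12.3 and 25.1 without (-2.14 ± 0.39, adjusted p = 0.0029). It and Marco were the 2 called among 18 scavenger and amyloid receptors. Bace2, a protease related to β-secretase, averaged 13.1 ± 4.99 with Aβ and 39.9 ± 8.73 without (-1.58 ± 0.31). It was the only 1 of 24 amyloid-degrading and APP-processing genes called, and lost its call with the astrocyte markers as covariate. In limma as fitted here 0 of 31 lysosomal genes, 0 of 24 Fc receptor and phagocytic signalling genes and 0 of 15 LXR targets were called, with 5, 2 and 4 at an unadjusted p under 0.05. The LXR target Abca1 was called in 1 of the 19 alternatives.

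Among genes of microglial identity, Cx3cr1, the receptor for the neuronal chemokine fractalkine, had 535.8, 617.5 and 655.5 with Aβ and 1261.9, 1061.8 and 844.9 without. No Aβ library reached an untreated one (-0.79 ± 0.19, adjusted p = 0.0208). Its call was lost without replicate 1 or 2 of either group. P2ry12 (-0.37 ± 0.20), Tmem119 (0.07 ± 0.26) and Csf1r (-0.24 ± 0.11) did not pass, and Cx3cr1 was the only 1 of 17 homeostatic genes called. Outside the lists, genes called under all alternatives included Il2rg, the common cytokine receptor chain, and Cited2, a transcriptional co-regulator. Il2rg averaged 271.5 ± 9.94 with Aβ and 406 ± 19.9 without (-0.58 ± 0.11). Cited2 averaged 546 ± 49.4 with Aβ and 801 ± 40.7 without (-0.55 ± 0.10).

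Slc40a1, which encodes ferroportin, the only known exporter of cellular iron, rose. Its signal was 5843, 5952 and 6459 with Aβ and 3435, 4036 and 5222 without. Every Aβ library was above every untreated one (0.54 ± 0.10, adjusted p = 0.00274), and the call held without any 1 library. Its level in WT was 5148 ± 188 at 0 h, and at 2 h 3616 ± 255 with Aβ and 3641 ± 180 without. The 0 h mean thus lay above the untreated mean at 8 h, 4231 ± 909. Gclm, the modifier subunit of the enzyme that limits glutathione synthesis, was 2826, 2842 and 2957 with Aβ and 1722, 2067 and 2407 without (0.49 ± 0.11, adjusted p = 0.0173). It was the only 1 of 20 NRF2 targets called, while 18 of the 20 had positive signs and the list median was 0.20. Of all genes, 0.131% were called higher and 49.2% had a positive sign. Gclm lost its call without replicate 1 or 2 of the untreated group or replicate 2 or 3 of the Aβ group. Hmox1, which breaks down heme, averaged 30895 ± 2356 with Aβ and 23478 ± 4523 without and did not pass (0.41 ± 0.15, adjusted p = 0.166).

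Other increases included Ikbkg, the regulatory subunit of the kinase that activates NF-kB (2343 ± 159 with Aβ and 1702 ± 226 without, 0.47 ± 0.10). Serpinb6b, a protease inhibitor, rose too (0.57 ± 0.15). Ikbkg was called in 14 of the 19 alternatives and in 3 of the 6 fits with a library left out. For Serpinb6b these were 8 and 1. Ptgs1, cyclooxygenase 1, rose to 54.1, 66.2 and 55.7 with Aβ, against 29.5, 29.99 and 12.5 without (1.35 ± 0.29, adjusted p = 0.0138). It was singled out after its value was seen. Of the 18 increases only 6 exceeded 2-fold. Cldn4 was at the floor in all 3 untreated libraries and stood at 1, 710.1 and 27.2 with Aβ, so that its call rested on 2 of the 3 Aβ libraries. Nefl, a neurofilament gene, was higher (1.87 ± 0.44; 23.3 to 37.7 with Aβ and 3.27 to 11.5 without), but its exons overlap those of Nefm on the other strand, and the counting is not stated to use strand.

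**Figure D4:**
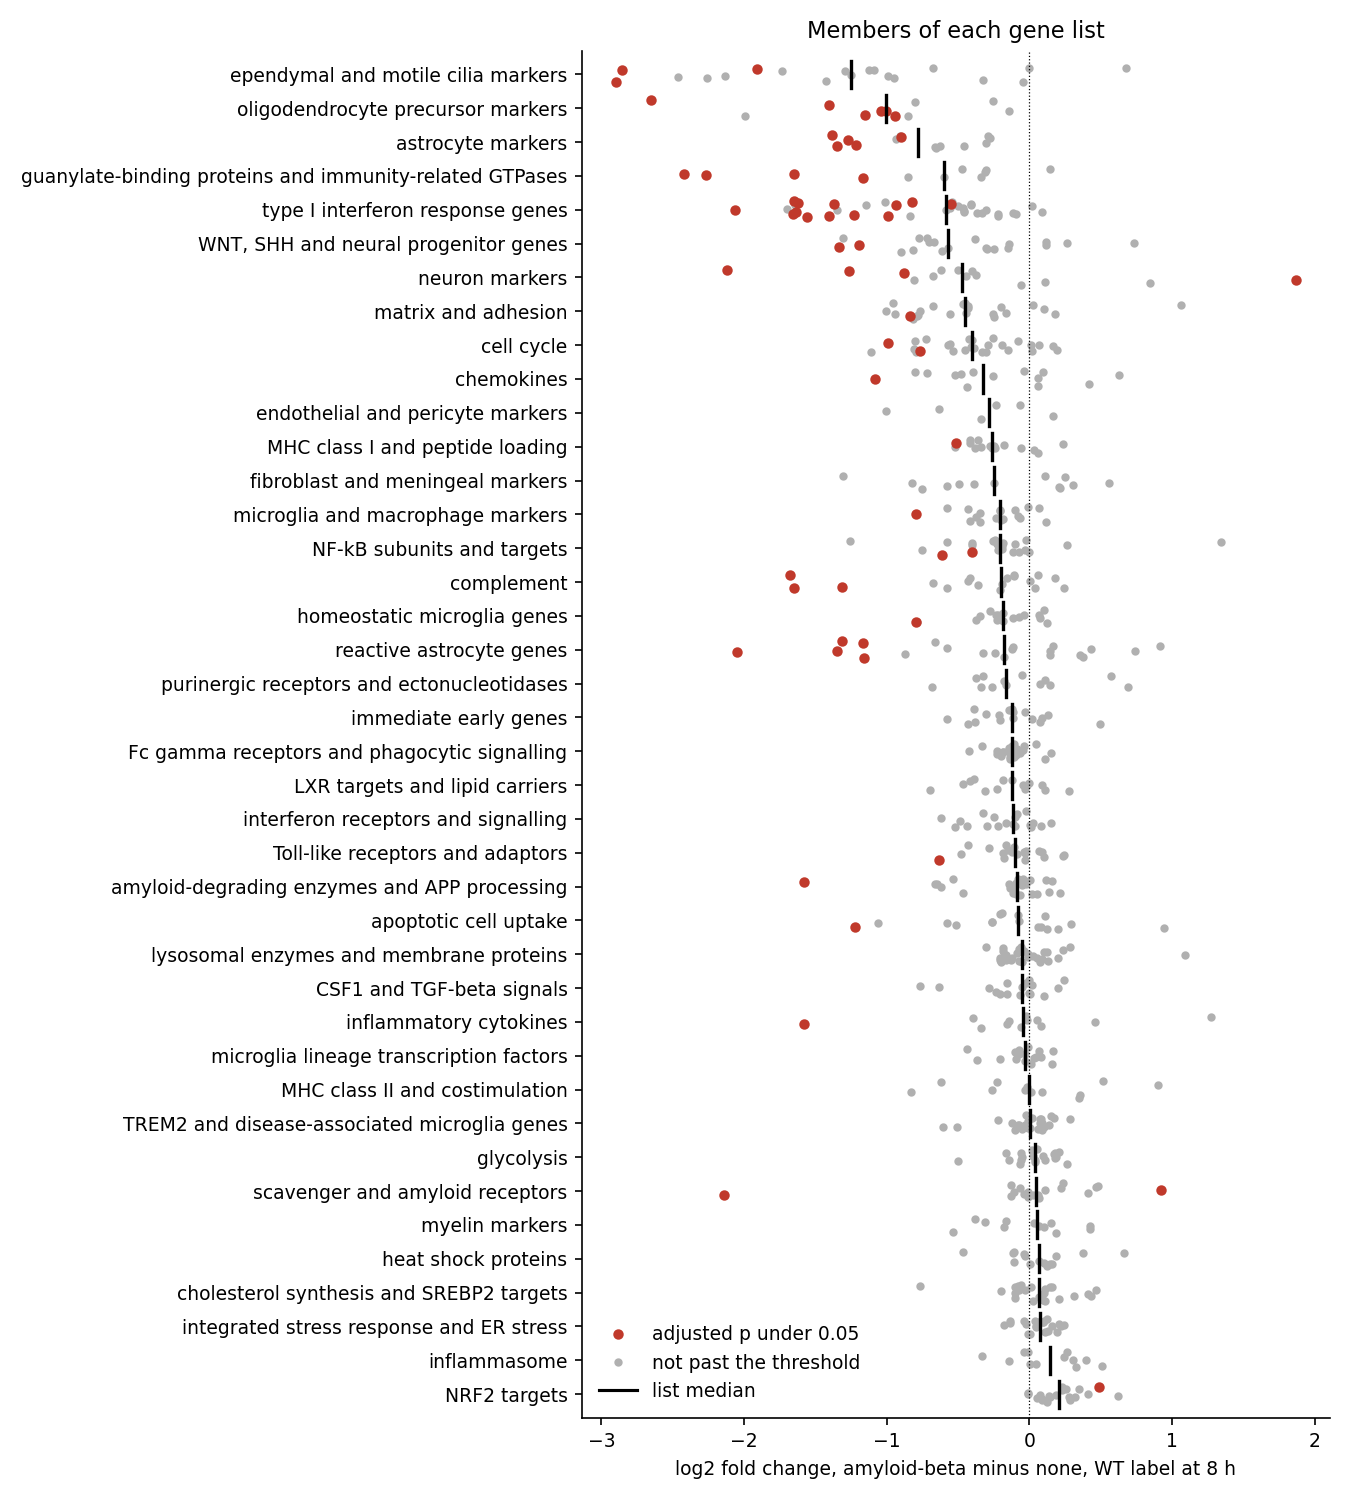
Log2 fold change, Aβ minus none, in WT libraries at 8 h, for each member of the gene lists, ordered by list median (black line). Red points passed the threshold and grey points did not. Medians of -1.25, -1.01 and -0.78 for ependymal, oligodendrocyte precursor and astrocyte markers are the lowest, and that of NRF2 targets, at 0.20, is the highest.

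Markers of other brain cells fell beside these immune genes. In bulk RNA, fewer cells of a type and less RNA per cell cannot be told apart. Of 11 oligodendrocyte precursor markers, all had negative signs, 6 fell, and the median was -1.01. Among all genes tested 2.05% were called lower, and 49.2% had a positive sign. Pdgfra, the growth factor receptor of these precursors, had 44.6, 38.2 and 77.3 with Aβ and 532.7, 470.6 and 137.9 without. The groups did not overlap, and the shallow library was nearest to the Aβ group (-2.65 ± 0.37, adjusted p = 0.000687). Sox10, a lineage transcription factor, had 35.0, 54.4 and 48.9 with Aβ against 145.2, 112.6 and 110.3 without (-1.41 ± 0.20), and was called under all 19 alternatives. Lhfpl3 (-0.94 ± 0.17) was too. Summed over the list, the signal was 1558 to 1699 with Aβ and 2209 to 3706 without, with the defining markers Pdgfra and Sox10 well above the floor in every library. The 6 calls were 3 without replicate 1 of the untreated group and 3 with the astrocyte covariate.

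All 14 astrocyte markers had negative signs and 5 fell (median -0.78), while 2.05% of all genes were called lower. Gfap, the filament protein of astrocytes, had 231.3, 167.6 and 239.3 with Aβ and 614.6, 853.5 and 295.8 without (-1.35 ± 0.34, adjusted p = 0.0336). The shallow library was again nearest to the Aβ libraries. The list's summed signal was 1733 to 1893 with Aβ and 2475 to 4475 without. The 5 calls became 6 without the shallow library, 1 without replicate 1 or 3 of the Aβ group, 0 without its replicate 2 or without replicate 1 or 2 of the untreated group, and 0 with quantile normalization or voom. The 5 were Gfap, Aqp4, Gja1, Clu and Aldh1l1.

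Ependymal and motile cilia markers had the lowest list median (-1.25), with 17 of 19 signs negative and 3 called. Among all genes 2.05% were called lower, and 49.2% had a positive sign. Foxj1, the master regulator of motile cilia, had 59.4, 57.3 and 50.7 with Aβ against 270.7, 243.4 and 145.4 without (-1.91 ± 0.35, adjusted p = 0.0029). The cilia genes Spag6 (-2.90 ± 0.53) and Hydin (-2.86 ± 0.62) were at or next to the floor with Aβ, at 1 to 2.12. Up to 6 of the 19 members lay at the floor in an Aβ library and up to 4 in an untreated one. Without the shallow library 10 ependymal markers were called, whereas the fewest with a library left out was 2. Over all alternatives the fewest was 0. Hydin lost its call without replicate 1 or 2 of either group. Among 14 neuron markers 3 fell, Dcx, Tubb3 and Dlx1, and 1 rose, Nefl; the 3 decreases came to 0 without replicate 2 of the Aβ group, to 2 without the shallow library, and to 1 without any of the other 4. The neuron sums were 729 to 798 with Aβ and 961 to 1244 without, and the ependymal sums 2059 to 2067 with Aβ and 2313 to 2742 without. Myelin (12 tested), fibroblast (13) and endothelial markers (6) had 0 calls in limma, with 0, 1 and 0 members at an unadjusted p under 0.05. Mbp, the main myelin protein, stood at 0.10 ± 0.16.

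Astrocyte, precursor, neuron and ependymal marker sums moved with Aβ in the same 6 libraries as the interferon and inflammatory genes. So did the microglia and macrophage sum given above. Of its 18 markers 16 had negative signs, with a median of -0.21. Without overlap 11 were lower, a pattern that 12.7% of all genes showed. Only 1, Cx3cr1, was called, while 2.05% of all genes were called lower. With the mean of the astrocyte markers as a covariate, the fit gave 159 lower and 52 higher genes (75.4% lower, against 94.0%), with 92 of the 299 calls kept, 85 of them lower. The type I interferon list again had 13 lower members (median -0.83), but only 9 of them were among the 13 called without the covariate; Ifit2, Rtp4, Cmpk2 and Ddx58 lost their calls. Complement had 3 lower members, inflammatory cytokines 3 and MHC class I 7. At 2 h the astrocyte list had a median of 0.00 and the interferon list one of 0.73. The part of the other cell types in these results was not tested.

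**Figure D5:**
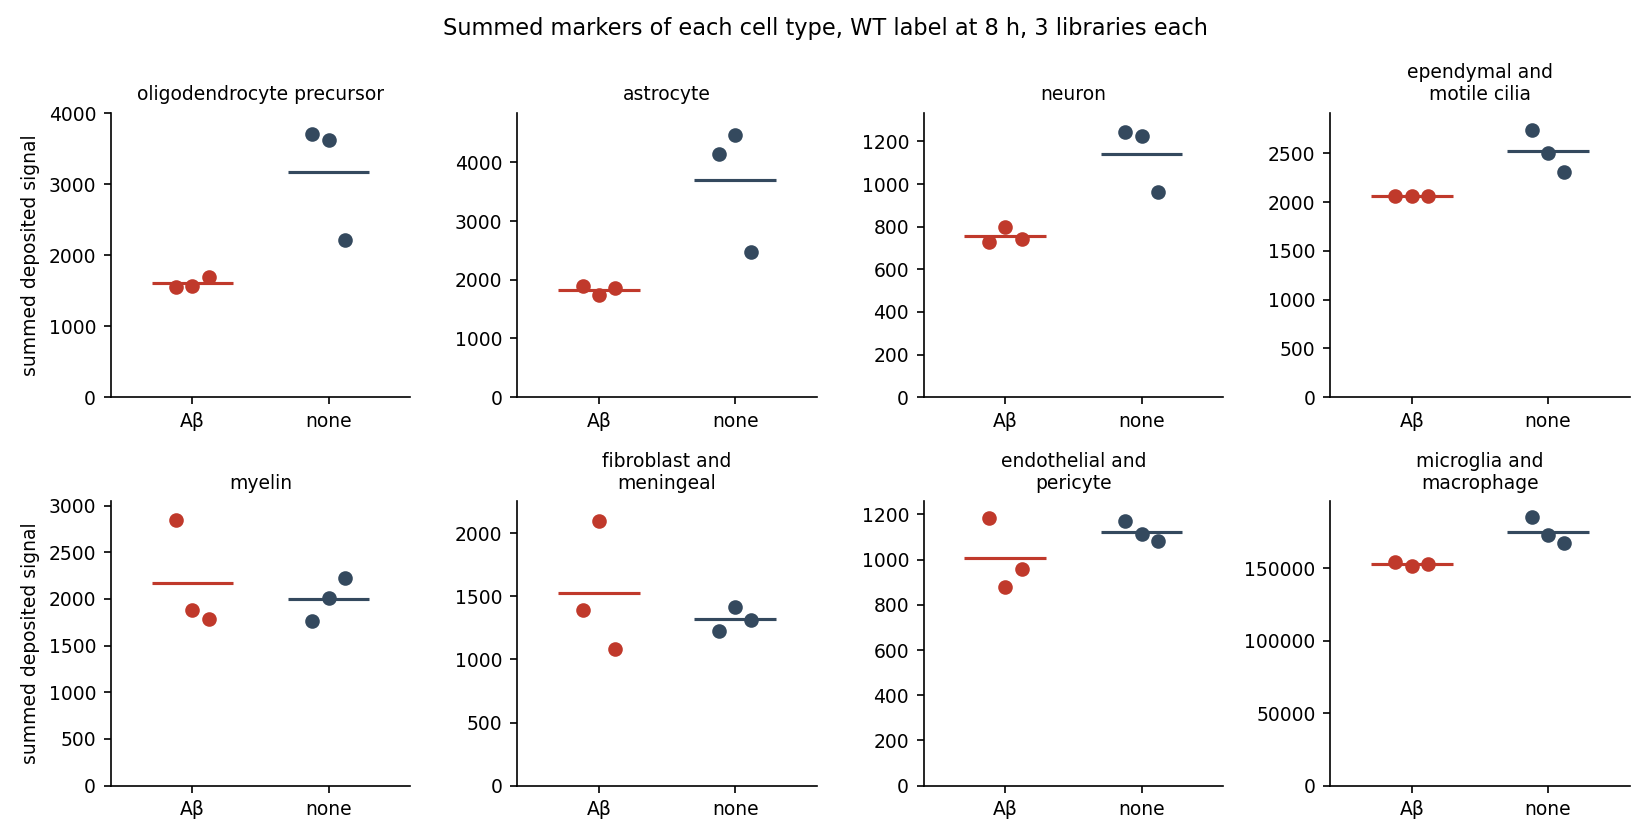
Summed deposited signal (linear axes from 0) of the markers of 8 cell types in the 3 WT libraries at 8 h with Aβ, left, and the 3 without, right. Points are libraries and lines are means. Precursor, astrocyte, neuron, ependymal and microglia sums with Aβ lie below all untreated libraries, whereas myelin, fibroblast and endothelial sums overlap.

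Proliferation genes were lower in part. Of 27 cell cycle genes 2 fell, Ccna2, the cyclin of S phase and mitosis (32.9 ± 1.79 with Aβ and 67.0 ± 10.2 without; -0.99 ± 0.17), and Top2a, which untangles replicated DNA (-0.77 ± 0.20). The count was 6 without the shallow library and 1 without any of the other 5. The list median was -0.40, and 22 of 27 signs were negative. Among all genes 2.05% were called lower, and 49.2% had a positive sign. Among the largest decreases of genes above the median level was Ntrk2, the receptor for the growth factor BDNF. It averaged 309 ± 5.66 with Aβ and 804 ± 166 without (-1.35 ± 0.28), and lost its call without replicate 1 or 2 of the untreated group. Rtn1 (-0.85 ± 0.13), Marcksl1 (-0.83 ± 0.13) and Dbn1 (-0.98 ± 0.18), which shape membranes and the actin skeleton, were called under all 19 alternatives.

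Whether the decreases are shared by cultures labelled PD-1 KO was asked through the difference of the 8 h effects between the labels. In limma this difference passed for 0 of 13722 genes (0%), while 810 had an unadjusted p under 0.05, against 686.1 expected by chance. Voom on recovered reads called 0 and array weights 192, and the count was 5 with only the groups compared, 3 without the shallow library and 1 without replicate 1 of the Aβ group labelled PD-1 KO. In that label alone 8 genes fell at 8 h (0.0583%) and 0 rose. Of the 281 genes lower in WT, 182 (64.8%) had a negative sign there, against 46.2% of all genes, with a median of -0.09. A difference between the labels was thus not shown, nor was a like response.

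Side by side, the 8 h effect was -0.20 in libraries labelled PD-1 KO and -2.06 in WT for Ifit3, a difference of 1.86 ± 0.44 that did not pass (adjusted p = 0.246). Of the 37 type I interferon response genes, 34 were below 0 at 8 h in the PD-1 KO label, against 46.2% of all genes. Their median there was -0.25, against -0.59 in WT. For Gfap the 8 h effect was 0.15 in the PD-1 KO label and -1.35 in WT (difference 1.498 ± 0.49, adjusted p = 0.481). For Cx3cr1 it was -0.83 in the PD-1 KO label and -0.79 in WT, and for Il1b -1.11 and -1.58; neither difference passed. The astrocyte sums at 8 h were 20267 to 37615 with Aβ and 21734 to 26317 without in libraries labelled PD-1 KO, several times those in WT.

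The 281 decreases were also looked up in the comparison of the labels at 0 h, which shares no library with the 8 h groups. There the PD-1 KO label was higher than WT for 1896 genes (13.8% of those tested) and lower for 944 (6.88%). Of the 281 genes lower with Aβ, 149 (53.0%) were among the higher ones, which is 7.86% of the 1896, and 5 (1.78%) among the lower. C3 (3.56), Gfap (3.33), Gbp2 (2.60) and Il1b (3.44) were of the 149, whereas Irf7 (-0.71) was of the 5. Ifit3 (0.57), Pdgfra (-0.97) and Sox10 (-0.27) passed in neither direction at 0 h. The astrocyte sums at 0 h were 14763 to 30183 in the PD-1 KO label and 3462 to 5315 in WT, and their part in this overlap was not tested. With the astrocyte covariate the 0 h comparison had 506 called genes.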

How the data were processed

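RNA was sequenced with the Illumina TruSeq RNA kit, per the labels' protocols. The deposited signal is, as the values show, gene counts divided by a size factor and floored at 1 by the authors: above the floor, 100% of values up to 5000 reads were whole multiples of 1 step per library (tolerance 0.05). Per the submitters' processing notes, mm10, DESeq2, R 3.0.2, Partek 6.6 and HISAT 0.1.5 were used, with no roles given here; counter and annotation are not given in the sources used here. Depth ran from 4227019 to 48509985 reads, with 1.08% of values at the floor.

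Genes reaching 10 in at least 3 of 30 libraries (13722 of 13788) were tested on log2(value + 1) with limma 3.58.1 in R 4.3.3, using the intensity trend, 1 mean per group and 20 residual degrees of freedom. The fit was first tested on simulated data. Earlier results of these data were known when members, gene lists, tests and naming rule were chosen. Named genes were, among called genes above the median level whose groups do not overlap, the 10 increases and 14 decreases of largest fold; up to 5 called members per list; a fixed set; and up to 6 genes per direction for each difference. Genes named for passing under all alternatives, or for library patterns, were chosen after their values were seen. Genes at the floor in a whole group were compared with a limit of 3 reads per library, which covers counting error only. Promoters are RefSeq windows on GRCm38.p6; a window was found for 10755 genes tested. Exon overlaps came from the GRCm38 annotation; 86 of 298 called genes placed there overlap another gene's exon. The planned edgeR fit was not run, because the floored values are not counts. Alternatives were other pseudocounts, filters, normalizations, limma settings and sets of libraries, and voom on values divided by each library's step, in which the floor hides the lowest reads. Figures used matplotlib 3.10.9.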

Additional observations from a re-analysis of the deposited data

Results flagged for a closer look

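The effect of Aβ in libraries labelled WT differed between 8 h and 2 h for 37 genes by the test of the difference itself. Oas3 (-3.83), Ifit3 (-3.43), Rsad2 (-2.93), Ifit2 (-2.92), Irf7 (-2.85) and Mx1 (-2.74), all interferon-stimulated genes, had the largest differences in log2 effect, 8 h minus 2 h. Each was above 0 at 2 h and below 0 at 8 h. Groups of 3 libraries are too small for a test of single outlying libraries.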

How the results depend on the processing

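The 299 genes called with Aβ at 8 h came to 336 (pseudocount 0), 300 (no filter), 261 (filter at 50), 332 (TMM factors), 228 (no trend), 291 (robust) and 211 (astrocyte covariate). They moved to 141 with pseudocount 10, 98 with quantile normalization, 151 with only WT libraries and 101 with voom. Of these, 140, 92, 137 and 88 were among the 299. The 211 genes of the astrocyte covariate fit also held only 92 of the 299. With only the groups compared the count was 68, of which 41 were among the 299. Array weights gave 1762, of which 71.2% were lower, against 94.0% as reported. Left-out libraries gave 55 to 513. The 37 time-difference genes moved to 17 with quantile normalization, 22 with only WT libraries, 805 with array weights, 57 with voom, 91 with the covariate and 3 with only the groups compared, and ranged from 12 to 93 over left-out libraries. The 0 genes that differed between labels became 192 with array weights, 5 with only the groups compared and 0 to 3 over left-out libraries. At 0 h, 2840 genes became 506 with the covariate, 1917 to 2828 over left-out libraries, and 33.2% lower calls became 48.7% with quantile normalization. The causes were not tested. Of 1784 alternative fold changes of the 94 named genes, 1398 kept their side of the threshold, 372 lost it and 14 gained it. Where a gene was called in the main fit or the alternative, 0 reversed sign. Signs of genes called in neither were not counted. Some of those did change, as for Ccl2 (-0.94 to 0.76) and Col1a1 (-1.28 to 0.65). Of the 299 genes, 14 were called throughout. No paired analysis was possible because library numbers are unique and no label pairs libraries. Depth limits low genes: 25 of the 281 lower genes were at the floor in at least 1 Aβ library. Sstr2, Ccdc67 and Hc were so in all 3 and were at least 1.75-, 2.56- and 1.596-fold lower. edgeR's quasi-likelihood test on recovered reads was not run.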
